A study of Homo sapiens with 6 samples.

Results

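Transcript levels of 32 genes of the p53 pathway were examined in 22Rv1 cells exposed to repeated DNA damage. The genes were taken by symbol from a list of known p53 targets. The rule uses no measured value, but the list was drawn up with earlier results of these data known. All 32 were among the 29804 gene symbols with counts, with TIGAR found under its older symbol C12orf5, and all 32 were among the 14672 genes expressed highly enough to be tested. 22Rv1 is a human prostate carcinoma epithelial cell line, and phleomycin breaks DNA strands in the manner of ionising radiation. WT cells were left untreated and harvested at week 0. AM (age matched) cells were kept untreated alongside the 6WP cells for the same 6 weeks, as the control for time in culture. 6WP cells were given 1 µg/ml phleomycin daily on week days, for a short exposure each time followed by fresh medium, over 6 weeks. All 3 groups are this 1 line with the same genotype label, and each group has 2 libraries labelled as biological replicates. The study's methods describe harvest as immediate and state no interval after the last exposure.

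p53 is a transcription factor that is held at a low level by the ubiquitin ligase MDM2 and is stabilised when DNA is broken. It then binds paired half-sites in DNA and switches on genes for cell cycle arrest, DNA repair and apoptosis, together with genes such as MDM2 itself that switch it off again. In prostate epithelium, as in other tissues, p21 (CDKN1A) is the best known of the arrest genes, and p21 in turn lowers a large group of cell cycle genes.

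The promoters of 5 of the genes are shown because they hold the elements compared between members, and because GDF15 and CDKN1A are the genes most referred to in the results. A RefSeq start was available for 27 of the 32 genes (not for GADD45A, PHLDA3, RRM2B, TNFRSF10B and TP53INP1), and the 250 bases before it were searched on both strands. Each line is written 5′ to 3′ on the gene's own strand (GRCh38.p14). The capitals mark the TATA box in GDF15 (chr19:18385908-18386157, plus strand), GC boxes on this strand in CDKN1A (chr6:36678464-36678713, plus strand), and a p53 half-site in AEN (chr15:88621090-88621339, plus strand), FDXR (chr17:74872995-74873244, minus strand) and PLK2 (chr5:58460087-58460336, minus strand).
GDF15: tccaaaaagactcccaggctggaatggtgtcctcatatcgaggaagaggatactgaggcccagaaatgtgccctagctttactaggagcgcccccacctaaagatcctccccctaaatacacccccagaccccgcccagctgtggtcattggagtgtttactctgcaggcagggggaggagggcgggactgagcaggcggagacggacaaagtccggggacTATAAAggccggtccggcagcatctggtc
CDKN1A: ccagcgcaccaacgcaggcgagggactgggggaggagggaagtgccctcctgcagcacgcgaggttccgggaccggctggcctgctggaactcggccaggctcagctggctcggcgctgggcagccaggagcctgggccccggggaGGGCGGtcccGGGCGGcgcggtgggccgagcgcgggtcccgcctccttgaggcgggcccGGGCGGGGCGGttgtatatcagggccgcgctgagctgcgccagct
AEN: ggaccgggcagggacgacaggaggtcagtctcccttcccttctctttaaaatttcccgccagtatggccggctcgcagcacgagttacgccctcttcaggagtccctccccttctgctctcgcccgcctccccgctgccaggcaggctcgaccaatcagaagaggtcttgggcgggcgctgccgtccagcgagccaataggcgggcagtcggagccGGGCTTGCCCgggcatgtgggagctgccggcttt
FDXR: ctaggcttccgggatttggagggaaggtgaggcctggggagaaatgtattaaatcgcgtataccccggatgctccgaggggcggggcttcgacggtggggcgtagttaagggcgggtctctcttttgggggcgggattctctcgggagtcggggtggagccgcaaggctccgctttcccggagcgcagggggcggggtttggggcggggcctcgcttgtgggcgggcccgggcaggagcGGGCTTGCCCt
PLK2: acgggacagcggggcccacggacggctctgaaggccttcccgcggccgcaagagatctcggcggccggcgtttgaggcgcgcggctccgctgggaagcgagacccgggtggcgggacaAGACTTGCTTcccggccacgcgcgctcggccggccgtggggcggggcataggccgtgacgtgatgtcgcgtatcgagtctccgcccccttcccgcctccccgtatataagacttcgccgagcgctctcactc

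The p53 half-site consensus was present in 3 of the 27 windows (11.1%), against 5.57% of the 35116 RefSeq promoters of the same length. It began 34 bases before the start in AEN, 11 in FDXR and 132 in PLK2. Transcript levels of these 3 genes did not pass the test in any comparison. A pair of CATG cores with 6 bases of any kind between them was in 0 of 27 windows, against 0.296% of all promoters, and the element TGATGCAA, which ATF4 is known to bind, was in 0 of 27 against 0.772%. The GC box GGGCGG was in 22 of 27 (81.5%), against 42.6% of all promoters. The TATA box TATAAA was found in GDF15 only, 29 bases before its start, against 10.7% of all promoters. The motifs can overlap one another, and their absence says only that the letters are not in these windows, since p53 sites often lie outside them.

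Libraries held 21222201 to 35311945 counts, at which the detection floor of 3 counts is 0.0850 to 0.141 CPM (counts scaled to the library total, with TMM normalisation). Every member was above this floor in every library, and the lowest member count was 41. These floors cover counting error only. All 10 luminal prostate epithelium markers were detected in each library, with HOXB13 at 437 to 719 CPM and KRT18 at 311 to 353 CPM, whereas PTPRC and CD3E of leukocytes, CDH5 of endothelium and KRT5 of basal epithelium were at 0 counts in all 6. COL1A1, a fibroblast gene, was at 1.00 to 2.46 CPM. Of the markers listed, 1 of 4 for leukocytes and 3 of 5 for fibroblasts were expressed highly enough to be tested. For endothelium and for basal epithelium 0 of 3 were. The leukocyte marker that was tested fell in AM against WT cells by edgeR (log2 fold change -1.64). The 6WP libraries stood further apart than the other pairs. Over genes, the chi-square per degree of freedom was 67.2 between the 6WP replicates, against 5.83 for WT and 9.36 for AM (1 is the value for counting error alone). Among 33 cell cycle genes that p53 is known to lower through p21, all 33 were higher in 6WP replicate 1 than in replicate 2, with a median difference of 1.21 on the log2 scale. In bulk RNA, fewer cells in cycle and less RNA per cell cannot be told apart.

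The comparison of 6WP with WT cells asks what 6 weeks of repeated damage together with time in culture left in the pathway. Only GDF15 rose and TP53INP1 fell, and the other 30 members did not pass the test. The 2 calls are 6.25% of the members, against 3.00% of all genes tested (1.63% higher and 1.37% lower). At an unadjusted p under 0.05, 5 members were higher and 10 lower. Shares of all genes at an unadjusted p are not given here. DESeq2 called 2 members higher and 4 lower, against 7.66% of all genes in either direction. The log2 fold change was below 0 for 22 members and above 0 for 10, with a median of -0.17, against 0.01 over all genes. The groups did not overlap for 15 members that were lower (46.9%, against 25.2% of all genes) and 4 that were higher (12.5%, against 25.5%). The calls depend on which libraries are included. Without any 1 of the WT or AM libraries no member was called by edgeR (7 to 10 members at an unadjusted p under 0.05), where the background was 0% without either WT library and 0.659% and 0.682% without AM replicate 1 and 2. Without 6WP replicate 1 there were 18 calls (3 higher, 15 lower, background 25.2%), and without 6WP replicate 2 there were 12 (5 higher, 7 lower, background 26.0%).

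The comparison of 6WP with AM cells holds the time in culture constant. GDF15, the death receptor TNFRSF10B, TP53I3 and the autophagy gene DRAM1 rose, BAX fell, and 27 members did not pass the test. These 5 calls are 15.6% of the members, against 21.3% of all genes (11.7% higher and 9.68% lower). DESeq2 called 4 higher and 1 lower, against 23.8% of all genes in either direction, and 4 of its calls were shared with edgeR. At an unadjusted p under 0.05, 8 were higher and 3 lower. The log2 fold change was above 0 for 18 members and below 0 for 14, with a median of 0.10 against 0.05 over all genes. For 11 members the groups did not overlap in the higher direction (34.4%, against 33.8% of all genes) and for 6 in the lower (18.8%, against 28.5%). Leaving out a WT library left 1 call, in TNFRSF10B, and leaving out an AM library left none by edgeR (4 and 9 at an unadjusted p under 0.05). The background was then 8.51% and 8.80% without WT replicate 1 and 2, and 1.18% and 0.775% without AM replicate 1 and 2. There were 14 calls without 6WP replicate 1 (5 higher, 9 lower, background 45.8%) and 16 without 6WP replicate 2 (13 higher, 3 lower, background 33.4%).

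The comparison of AM with WT cells sets untreated cells at week 6 against untreated cells at week 0. Time in culture and the separate harvests cannot be told apart in it. All 7 calls among the members were falls, in BTG2, CCNG1, CCNG2, TP53INP1, ZMAT3, PERP and DRAM1, and 25 members did not pass the test. The calls are 21.9% of the members, against 17.7% of all genes in either direction and 9.93% lower. No member rose by edgeR, against 7.74% of all genes, while 1 was higher at an unadjusted p under 0.05. DESeq2 called 1 member higher and 7 lower, against 20.8% of all genes in either direction. The log2 fold change was below 0 for 25 members and above 0 for 7, with a median of -0.18, against -0.0023 over all genes. The groups did not overlap for 20 members that were lower in AM (62.5%, against 36.9% of all genes) and 5 that were higher (15.6%, against 36.9%). No call was left by edgeR without any 1 of the WT or AM libraries (7 or 8 at an unadjusted p under 0.05), where the background was 0.534% and 0.570% without WT replicate 1 and 2, and 0.902% and 0.448% without AM replicate 1 and 2. There were 15 calls without 6WP replicate 1 (3 higher, 12 lower, background 43.9%) and 14 without 6WP replicate 2 (3 higher, 11 lower, background 44.7%).

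**Figure D1:**
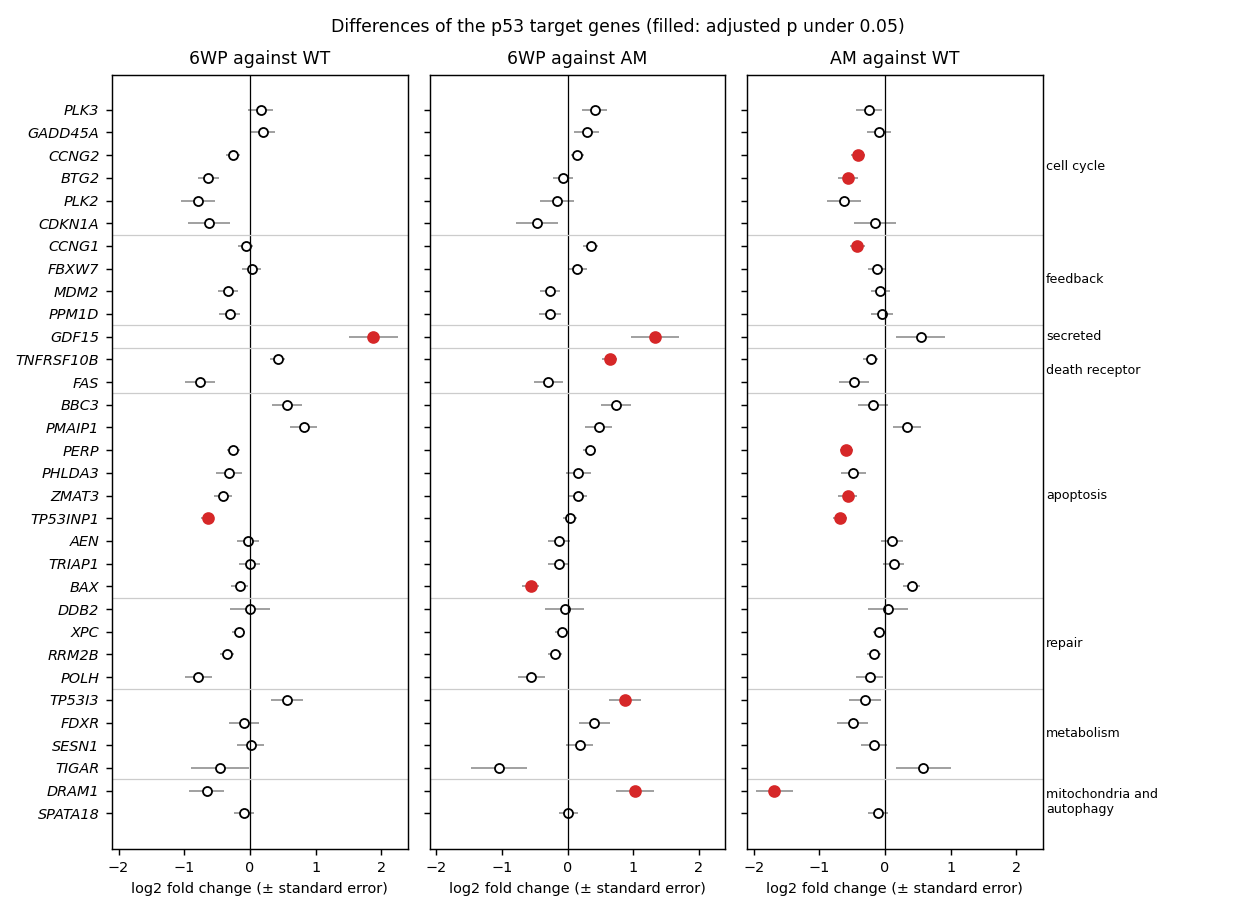
Log2 fold change of each of the 32 genes, grouped by role, in 1 panel for each of the 3 comparisons, with bars of ± 1 standard error and filled points for an adjusted p under 0.05. GDF15 is the member furthest above 0 in both comparisons of 6WP cells (1.88 and 1.34), and DRAM1 is the furthest below 0 in AM against WT cells (-1.69).

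GDF15 encodes a secreted stress cytokine of the TGF-beta family and lies at chromosome 19 from 18374731 to 18389176 on the plus strand (GRCh38). Its level was 15.3 and 19.0 CPM in the WT libraries, 24.3 and 25.4 CPM in the AM libraries, and 90.5 and 35.4 CPM in the 6WP libraries. Both 6WP libraries were above all 4 others, and the 6WP libraries differed from each other more than WT from AM cells. GDF15 was 2.53-fold higher in 6WP than in AM cells (log2 fold change 1.34, standard error 0.37, adjusted p = 0.0367). Without 6WP replicate 1 this value was 0.50, and with each library left out it lay between that and 1.83. Against WT cells its log2 fold change of 1.88 (adjusted p = 0.0430) was 1.03 without 6WP replicate 1 and 2.38 without 6WP replicate 2. With a WT or AM library left out it lay between 1.73 and 2.04 and missed the threshold (adjusted p from 0.116 to 0.411). For AM against WT cells, the value of 0.54 (standard error 0.37) did not pass the test (adjusted p = 0.332).

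Of the 6 genes of cell cycle control, BTG2 and CCNG2 fell in AM cells and the others passed no test. CDKN1A, which encodes the cyclin-dependent kinase inhibitor p21, was at 80.9 and 81.9 CPM in WT, 80.6 and 65.6 in AM, and 73.6 and 32.1 in 6WP libraries. Its 6WP replicate 2 was far below the other 5 libraries, while 6WP replicate 1 overlapped the AM range. The 6WP against WT log2 fold change was -0.62 with a 95% confidence interval from -1.36 to 0.11 (adjusted p = 0.295), and the 6WP against AM value was -0.47 with an interval from -1.21 to 0.27 (adjusted p = 0.319). Without 6WP replicate 1 the 6WP against WT value was -1.36 and passed the test (adjusted p = 3.05e-06), and without 6WP replicate 2 it was -0.17. CDKN1A exons overlap DINOL on the opposite strand, and the strand setting of the counting is not given in the sources used here.

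BTG2, an antiproliferative cofactor of mRNA decay, was at 41.6 and 46.3 CPM in WT, 30.4 and 29.0 in AM, and 32.4 and 24.3 in 6WP libraries. Both WT libraries were above all others. It fell by 0.57 on the log2 scale in AM against WT cells (standard error 0.16, adjusted p = 0.0421), and the 6WP against WT value of -0.63 had an adjusted p of 0.0724. CCNG2, an unconventional cyclin linked to arrest, was at 53.4 and 54.5 CPM in WT, 39.3 and 41.7 in AM, and 44.6 and 45.3 in 6WP libraries. It fell by 0.41 in AM against WT cells (standard error 0.11, adjusted p = 0.0344), with AM lowest and no overlap between any groups. GADD45A, PLK2 and PLK3 passed no test, with log2 fold changes from -0.79 (PLK2) to 0.20 (GADD45A) in 6WP against WT cells. The kinases PLK2 and PLK3 were at 2.50 to 5.67 and at 5.39 to 8.46 CPM over the 6 libraries.

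The 4 feedback genes of p53 did not pass the test in either comparison of 6WP cells. MDM2 was at 237 and 244 CPM in WT, 250.0 and 209 in AM, and 165 and 217 in 6WP libraries. The 6WP libraries were below both WT libraries and overlapped AM. Its log2 fold change was -0.33 against WT (interval from -0.68 to 0.02, adjusted p = 0.244) and -0.26 against AM cells (standard error 0.15, adjusted p = 0.243). MDM2 was the member that differed most between the 6WP libraries in the direction opposite to CDKN1A, with replicate 1 lower by 0.39 on the log2 scale. CCNG1, which encodes cyclin G1, a partner of the phosphatase that acts on MDM2, was at 297 and 265 CPM in WT, 207 and 213 in AM, and 252 and 285 in 6WP libraries. It fell by 0.42 in AM against WT cells (standard error 0.11, adjusted p = 0.0399), and AM was the lowest group with no overlap. The 6WP against AM value of 0.36 missed the threshold (adjusted p = 0.0592). PPM1D (WIP1, the phosphatase that switches off the damage kinases) and FBXW7, a ubiquitin ligase subunit, lay at 25.1 to 39.4 and 16.4 to 19.9 CPM and passed no test.

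Both death receptors in the list carry apoptotic signals from outside the cell. TNFRSF10B (TRAIL receptor 2, chromosome 8 from 23020133 to 23069031, minus strand) was at 88.9 and 85.5 CPM in WT, 80.2 and 69.7 in AM, and 120.5 and 113 in 6WP libraries. Both 6WP libraries were above all 4 others and close to each other. It rose 1.56-fold in 6WP against AM cells (log2 fold change 0.64, standard error 0.11, adjusted p = 0.00983), and the value against WT cells of 0.42 missed the threshold (adjusted p = 0.0873). With each library left out, the 6WP against AM value lay between 0.54 and 0.74, and the call was lost without either AM library (adjusted p up to 0.112). FAS lay between 4.79 and 10.4 CPM and was highest in WT cells, and its 6WP against WT value of -0.76 (standard error 0.22) did not pass the test (adjusted p = 0.104).

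**Figure D2:**
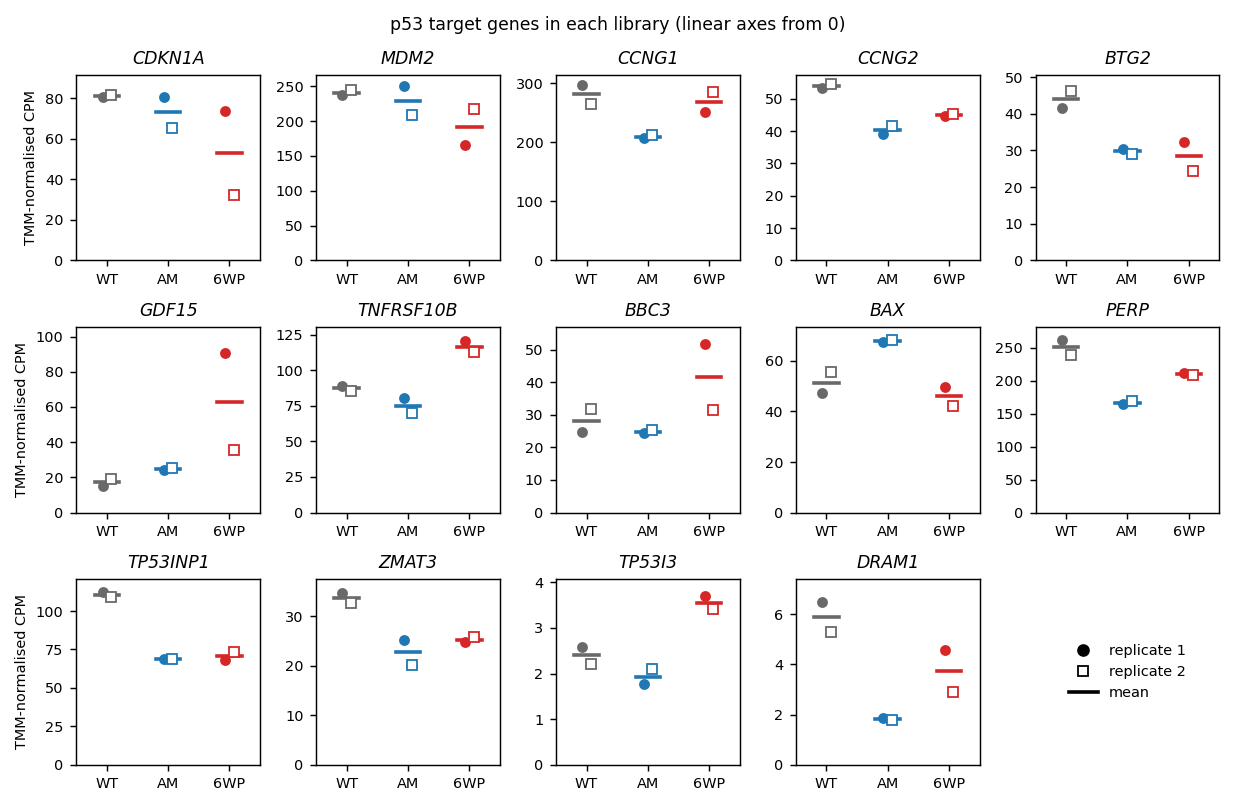
TMM normalised level (CPM, linear axes from 0) of the 11 genes that passed a test, and of CDKN1A, MDM2 and BBC3, in each of the 6 libraries. Circles are replicate 1, squares are replicate 2 and short bars are group means. TNFRSF10B is above the other groups in both 6WP libraries, and CDKN1A separates its 6WP libraries (73.6 and 32.1 CPM).

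Among the 9 apoptosis genes, BAX fell against AM cells, TP53INP1 fell against WT cells, and TP53INP1, ZMAT3 and PERP fell in AM against WT cells. BAX, the pore-forming effector of mitochondrial apoptosis (chromosome 19 from 48954815 to 48961798, plus strand), was at 47.1 and 55.5 CPM in WT, 67.5 and 68.3 in AM, and 49.7 and 42.4 in 6WP libraries. The AM libraries were the highest, and 6WP overlapped WT. BAX fell to 0.678-fold in 6WP against AM cells (log2 fold change -0.56, standard error 0.13, adjusted p = 0.0227). The AM against WT value of 0.40 missed the threshold (adjusted p = 0.0692), and the 6WP against WT value was -0.16 (adjusted p = 0.518).

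BBC3, which encodes the BH3-only protein PUMA, was at 24.6 and 31.7 CPM in WT, 24.5 and 25.2 in AM, and 51.6 and 31.6 in 6WP libraries. Both 6WP libraries were above AM, but replicate 2 lay at the level of WT replicate 2. The 6WP against AM value of 0.74 (interval from 0.22 to 1.27) had an adjusted p of 0.0528, and against WT it was 0.56 (adjusted p = 0.202). PMAIP1, which encodes the related protein NOXA, had a 6WP against WT value of 0.82 (standard error 0.21, adjusted p = 0.0766), with both 6WP libraries (31.0 and 27.7 CPM) above the other 4 (13.5 to 23.7 CPM).

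TP53INP1, a p53 cofactor with a role in apoptosis and autophagy (chromosome 8 from 94925972 to 94949378, minus strand), was at 112 and 109 CPM in WT, 68.8 and 68.6 in AM, and 68.1 and 73.3 in 6WP libraries. The WT libraries stood above all others, and 6WP overlapped AM. It fell to 0.640-fold in 6WP against WT cells (log2 fold change -0.64, standard error 0.10, adjusted p = 0.0225) and by 0.69 on the log2 scale in AM against WT cells (adjusted p = 0.00737). Between 6WP and AM cells it differed by 0.04, with an interval from -0.20 to 0.28 (adjusted p = 0.798).

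PERP, a membrane protein of desmosomes and apoptosis, was at 262 and 239 CPM in WT, 164 and 169 in AM, and 211 and 209 in 6WP libraries. The 3 groups did not overlap, with AM lowest and 6WP between. It fell by 0.59 in AM against WT cells (standard error 0.10, adjusted p = 0.0106), and the 6WP against AM value of 0.34 missed the threshold (adjusted p = 0.0505). ZMAT3, an RNA-binding zinc finger protein, was at 34.6 and 32.7 CPM in WT, 25.3 and 20.1 in AM, and 24.8 and 25.8 in 6WP libraries. It fell by 0.57 in AM against WT cells (standard error 0.14, adjusted p = 0.0317), and 6WP overlapped AM. AEN, a nuclease, PHLDA3, an inhibitor of AKT, and TRIAP1, a mitochondrial survival factor, passed no test and had 6WP against WT values of -0.03, -0.32 and -0.0015.

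None of the 4 DNA repair genes passed edgeR's quasi-likelihood test over all 6 libraries, although at an unadjusted p under 0.05 POLH and RRM2B were lower in 6WP against WT cells and POLH in 6WP against AM cells. XPC and DDB2 recognise damage for nucleotide excision repair, POLH copies past damaged bases, and RRM2B supplies nucleotides. POLH had the largest value of these, at -0.79 in 6WP against WT cells (standard error 0.21, adjusted p = 0.0800) and 9.91 and 9.41 CPM in the 6WP libraries, below the 4 others (11.3 to 17.2 CPM). This difference passed with the Wald test of DESeq2 (adjusted p = 0.0150), with edgeR's likelihood ratio and exact tests (adjusted p = 0.0117 and 0.0125), without a filter (adjusted p = 0.0318), and without 6WP replicate 1 or 2 (adjusted p = 0.00741 and 0.00915). DDB2 was at 20.2 to 23.8 CPM in the WT and AM libraries, and at 29.7 and 13.8 CPM in the 6WP libraries. The 6WP libraries lay on either side of all the others, and the 6WP against WT value was 0.0028 (adjusted p = 0.996). It was -0.67 without 6WP replicate 1 (adjusted p = 0.00405) and 0.43 without replicate 2 (adjusted p = 0.0261). RRM2B and XPC were at 87.5 to 116 and 58.4 to 66.4 CPM, with 6WP below both other groups and 6WP against WT values of -0.35 and -0.17 (adjusted p = 0.115 and 0.358).

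In the group of 4 genes of metabolism and redox control, TP53I3 rose against AM cells. TP53I3, a quinone oxidoreductase also known as PIG3 (chromosome 2 from 24077433 to 24085861, minus strand), was at 2.59 and 2.21 CPM in WT, 1.77 and 2.09 in AM, and 3.69 and 3.42 in 6WP libraries. Both 6WP libraries were above all others, and the replicates were close. It rose 1.83-fold against AM cells (log2 fold change 0.87, standard error 0.24, adjusted p = 0.0371), and the value against WT of 0.57 did not pass the test (adjusted p = 0.214). The rise of TP53I3 against AM cells was not called by DESeq2. TIGAR, a regulator of glycolysis, was at 4.74 and 1.62 CPM in the 6WP libraries and 4.29 to 7.79 CPM in the other 4, and its value of -1.05 against AM cells had an adjusted p of 0.117. FDXR (ferredoxin reductase) and SESN1 (a sestrin that restrains growth signals) passed no test and were higher in 6WP replicate 1 than in replicate 2.

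DRAM1, a lysosomal protein that promotes autophagy (chromosome 12 from 101877580 to 102012130, plus strand), was at 6.47 and 5.28 CPM in WT, 1.85 and 1.80 in AM, and 4.56 and 2.89 in 6WP libraries. The 3 groups did not overlap, and 6WP lay between WT and AM. DRAM1 fell to 0.310-fold in AM against WT cells (log2 fold change -1.69, standard error 0.28, adjusted p = 0.00958). It rose 2.04-fold in 6WP against AM cells (log2 fold change 1.03, standard error 0.28, adjusted p = 0.0382), a value that was 0.66 without 6WP replicate 1 (adjusted p = 0.0532). The 6WP against WT value of -0.66 did not pass the test (adjusted p = 0.199). SPATA18, which acts in mitochondrial quality control, was at 9.51 to 10.7 CPM in all libraries and passed no test.

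Exons of 15 of the 32 genes overlap those of another gene, on the opposite strand for 14 of them. These include MDM2, TNFRSF10B (with RHOBTB2), TP53I3 (with FAM228B), TP53INP1 (with NDUFAF6) and DRAM1, so their counts can hold reads of the partner if strand was not used. The exons of GDF15, BAX, PERP, BTG2, ZMAT3, CCNG1 and CCNG2 have no overlapping gene annotated on the opposite strand.

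The members differed in how far the 6WP replicates agreed. In 6WP cells, 25 of the 32 genes (78.1%) were higher in replicate 1 than in replicate 2, with a median difference of 0.35 on the log2 scale, against 50.6% and 0.0084 over all genes tested. In WT and AM cells 18 of 32 were higher in replicate 1, with medians of 0.05 and 0.03. Differences above 0.5 in size between the 6WP replicates were found for 12 members (37.5%, against 25.1% of all genes), and for 1 member between the WT and 2 between the AM replicates. The largest were in TIGAR (1.50), GDF15 (1.35), CDKN1A (1.20) and DDB2 (1.10), all higher in replicate 1. TNFRSF10B (0.09), TP53I3 (0.11), PERP (0.02) and XPC (0.02) differed little. The cell cycle genes differ between the same 2 libraries in the same direction, and their part in these differences was not tested.

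**Figure D3:**
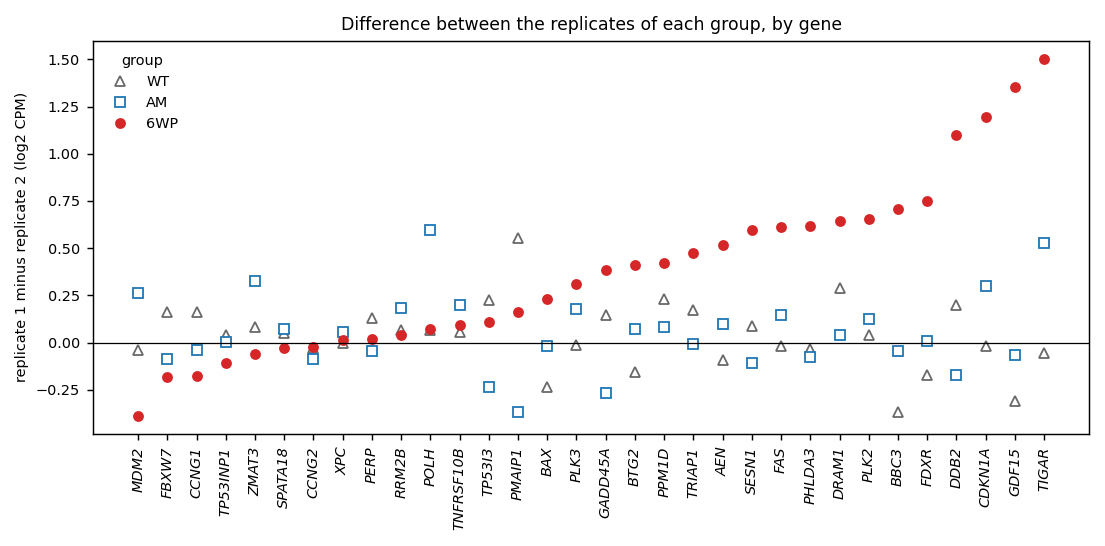
Difference between replicate 1 and replicate 2 of each group for each of the 32 genes, in log2 units. The 6WP points spread from -0.39 (MDM2) to 1.50 (TIGAR), and 25 of 32 lie above 0.

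Relative to the mean of the WT libraries, the median member was at -0.16 and -0.23 in the AM libraries and at -0.09 and -0.29 in the 6WP libraries (log2 differences). In the same libraries 9 and 8 (AM) and 13 and 7 (6WP) of the 32 members were above the WT mean. The 33 cell cycle genes had medians of 0.56 and 0.56 in AM, and 0.23 and -0.93 in 6WP libraries, and none of them was above the WT mean in 6WP replicate 2.

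**Figure D4:**
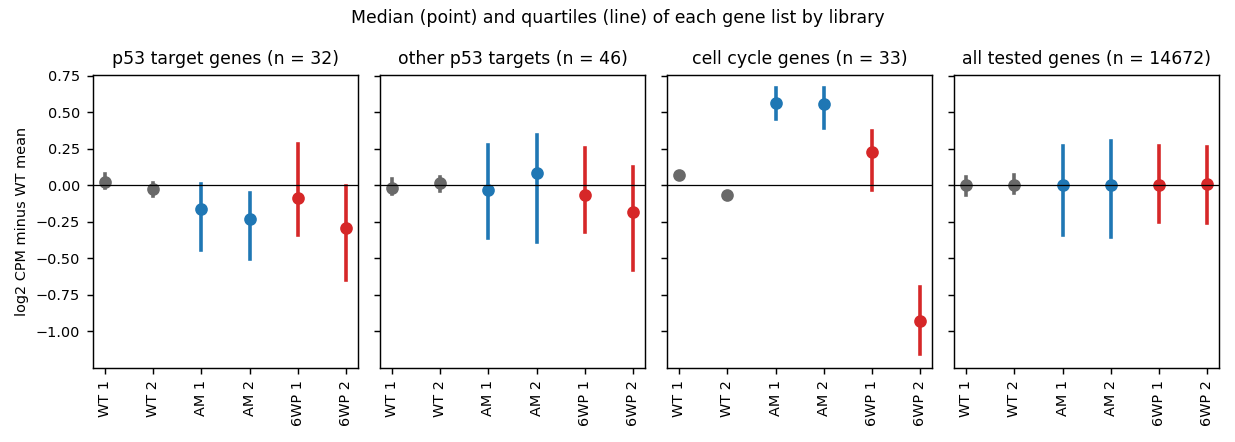
Median (point) and quartiles (line) of the log2 difference from the WT mean for the members, the other p53 target genes, the cell cycle genes and all tested genes in each of the 6 libraries. The cell cycle genes are at 0.23 and -0.93 in the 6WP libraries, while the members are at -0.09 and -0.29.

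Of 50 other p53 target genes, 46 were tested. In 6WP against WT cells 2 rose and 5 fell (15.2%, against 3.00% of all genes). In 6WP against AM cells 5 rose and 9 fell (30.4%, against 21.3%), and in AM against WT cells 5 rose and 6 fell (23.9%, against 17.7%). The smallest adjusted p-values in 6WP against WT cells were in DDIT4, SESN2 and KITLG. DDIT4 (REDD1, an inhibitor of mTORC1) was at 33.6 and 38.0 CPM in WT, 57.2 and 78.5 in AM, and 144 and 127 in 6WP libraries, in that order without overlap. Its log2 fold change was 1.92 in 6WP against WT (adjusted p = 0.00448), 0.99 in 6WP against AM (adjusted p = 0.00763) and 0.92 in AM against WT cells (adjusted p = 0.0118). SESN2, a stress-induced relative of SESN1, was at 119 and 87.9 CPM in 6WP libraries and 35.6 to 57.1 in the others, and rose by 1.53 against WT (adjusted p = 0.00654) and 0.98 against AM cells (adjusted p = 0.00818). SESN1 itself had a 6WP against WT value of 0.01 (adjusted p = 0.987). DDIT4 and SESN2 are also known targets of ATF4. KITLG, the ligand of the receptor KIT, was at 9.73 and 9.62 CPM in 6WP libraries and 17.7 to 20.0 in the others, and fell by 0.92 against WT (adjusted p = 0.0170) and 1.02 against AM cells (adjusted p = 0.00420).

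MDM4, an inhibitor of p53 related to MDM2, was at 30.9 and 38.6 CPM in WT, 33.7 and 28.8 in AM, and 34.3 and 54.0 in 6WP libraries and passed no test (6WP against WT 0.34, adjusted p = 0.392).

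Of 22 p53 regulators, 21 were tested. In 6WP against WT cells edgeR called none of them, against 3.00% of all genes, with 1 higher and 1 lower at an unadjusted p under 0.05. DESeq2 called 1 regulator lower, against 7.66% of all genes in either direction. CHEK1, the checkpoint kinase of stalled replication, had the smallest adjusted p in 6WP against WT cells (-0.59, adjusted p = 0.0849) and fell by 0.89 against AM cells (adjusted p = 0.00978). The acetyltransferase KAT5 (0.30, adjusted p = 0.151) and the kinase ATR (-0.29, adjusted p = 0.272) followed.

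Of the 33 cell cycle genes, 1 fell in 6WP against WT cells (3.03%, against 1.37% of all genes lower and 3.00% in either direction). In 6WP against AM cells 10 fell (30.3%, against 9.68% of all genes), and in AM against WT cells 7 rose (21.2%, against 7.74%). All 33 had a log2 fold change below 0 in 6WP against AM cells and above 0 in AM against WT cells, with medians of -0.87 and 0.54. MCM4 and MCM6, subunits of the replicative helicase, and RRM2, a subunit of ribonucleotide reductase, had the smallest adjusted p-values in 6WP against WT cells, with values of -0.72 (adjusted p = 0.0464), -0.44 (adjusted p = 0.0765) and -1.16 (adjusted p = 0.0650). Against AM cells MCM4 fell by 1.33 (adjusted p = 0.00272), MCM6 fell by 1.07 (adjusted p = 0.00230) and RRM2 fell by 1.89 (adjusted p = 0.00574). The 3 comparisons share their libraries, so these values are not independent of one another.

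Per kilobase of exon in WT cells, the members ranged widely in level. CCNG1 was the most abundant at 90.7 CPM per kilobase, followed by PERP (59.6), TRIAP1 (49.4), MDM2 (29.0) and CDKN1A (27.2), and the lowest were TIGAR (0.463) and FAS (0.352). On this scale GDF15 had 8.20 CPM per kilobase in WT, 11.9 for AM and 30.2 for 6WP cells. Lengths count every annotated exon, so genes with long rare exons are placed low.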

How the data were processed

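RNA was measured in 3 groups of 2 libraries from 22Rv1 cells. According to the study's methods and the submitters' processing notes, the authors sequenced 100 bp single end reads from a stranded kit, aligned them to hg38 with STAR 2.5.3a, and used StringTie 1.3.3, featureCounts 1.5.3 and edgeR 3.22.3. The deposited values are raw counts, 1 row for each symbol. The annotation and strand setting are not given in the sources used here.

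Counts of 29804 symbols were filtered with filterByExpr (14672 kept), TMM normalised and fitted over all 6 libraries with a quasi-likelihood model without covariates in edgeR 4.0.16 (R 4.3.3). Tests were two-sided, with Benjamini-Hochberg adjustment over all tested genes and a threshold of 0.05. Standard errors were taken as the size of the log2 fold change over the root of F. An exact permutation test of 2 against 2 libraries cannot go below 0.333, so p-values rest on the model. Alternatives were DESeq2 1.42.0, other normalisations, filters and tests, a fit to 2 groups, a replicate block and each library left out.

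The 32 genes and the further lists were chosen with earlier results of these data known. Values per library are given for members called in any comparison and for CDKN1A, MDM2, BBC3, BAX and GDF15. Of the further lists, they are given for MDM4 and DDIT4, and within 6WP cells for SESN2 and KITLG. In each further list the 3 genes with the smallest adjusted p in 6WP against WT cells are named with log2 fold changes. Some genes that were measured are not reported here. Further members are described by range. Positions and lengths are from GENCODE on GRCh38, promoters from RefSeq (GRCh38.p14). The pipeline was tested on simulated data for 6WP against WT cells, with 200 of 14484 genes changed by 1.58 on the log2 scale. It made 202 calls, of which 184 were true and 18 false. In the real 6WP against WT comparison only GDF15 among the members changed by more, so recovery of smaller changes was not tested.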

Additional observations from a re-analysis of the deposited data

How the results depend on the processing

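Each result was recomputed with 10 other settings and with each of the 6 libraries left out. The number of members called in 6WP against WT cells was 2 in the main fit, against 3.00% of all genes. With library size only it was 1 (against 2.58%), without a filter 5 (4.37%) and with the Wald test of DESeq2 6 (7.66%). The likelihood ratio test called 8 members (against 10.2% of all genes) and the exact test 7 (9.67%). A fit to the 2 groups compared called 0 (against 0.661%), with 10 members at an unadjusted p under 0.05. In 6WP against AM cells 5 members were called in the main fit, against 21.3% of all genes. The number was 8 with upper quartile factors (against 22.8%) and 1 in the fit to 2 groups (9.07%). In AM against WT cells it was 7 in the main fit (against 17.7% of all genes) and 14 in the fit to 2 groups (46.5%). With each library left out, the counts ranged from 0 to 18, from 0 to 16 and from 0 to 15. Over all genes, the fit to 2 groups called 96, 1309 and 6620 against 440, 3131 and 2593, and the likelihood ratio test called 1492 in 6WP against WT cells. Of the cell cycle genes, 10 were called in 6WP against AM cells. The number was 20 without a filter (against 17% of all genes), 16 with the Wald test (23.8%) and 19 with the replicate block (20.9%). It was 18 with the likelihood ratio and exact tests (against 27.4% and 26.7%). In AM against WT cells 7 were called, but 4 with library size only (against 16.3%) and 12 without a filter (14.8%). The Wald test called 11 there (against 20.8%) and the fit to 2 groups 31 (46.5%). Of the other p53 targets, 7 were called in 6WP against WT cells. The Wald test called 15 (against 7.66% of all genes) and the likelihood ratio and exact tests 14 (10.2% and 9.67%). The fit to 2 groups called 2 (against 0.661%). That fit called 6 in 6WP against AM cells (14 in the main fit), against 9.07% of all genes. In AM against WT cells it called 27 (11 in the main fit), against 46.5%. The causes were not tested.

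The main fit did not pair the samples by replicate number. Correlations of the replicate deviations between groups were 0.0395 (WT and AM), 0.0873 (WT and 6WP) and -0.0206 (AM and 6WP). These values do not settle whether the samples were paired. With a replicate block, 2, 5 and 5 members were called, against 2.68%, 20.9% and 16.9% of all genes.

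Single genes that changed sign under another setting lay near 0. In 6WP against WT cells, SESN1 was at -0.0112 with DESeq2 size factors, -0.0103 with library size only, -0.0111 with the Wald test, -0.00013 in the fit to 2 groups and -0.0065 with the replicate block. DDB2 was at -0.0175, -0.0113, -0.0172, -0.0048 and -0.0475 under the same settings and -0.000298 with upper quartile factors, and FBXW7 at -0.00076 with library size only. In 6WP against AM cells, SPATA18 was at -0.0150 with DESeq2 size factors, -0.0147 with the Wald test and -0.0021 in the fit to 2 groups. With upper quartile factors BTG2 was at 0.0211, XPC at 0.0022 and DDB2 at 0.0429, and DDB2 was at 0.00088 with library size only. In AM against WT cells, DDB2 was at -0.0432 and ATR at -0.0367 with upper quartile factors, and at -0.0121 and -0.0046 with library size only.

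With each library left out in turn, these genes crossed 0. In 6WP against WT cells the ranges were -0.19 to 0.017 for CCNG1, -0.27 to 0.19 for TRIAP1, -0.34 to 0.25 for SESN1, -0.67 to 0.43 for DDB2, -0.32 to 0.18 for AEN, -0.096 to 0.11 for FBXW7, -0.023 to 0.35 for GADD45A, -0.019 to 0.29 for PLK3, -0.53 to 0.21 for FDXR, -1.44 to 0.090 for TIGAR and -0.044 to 0.62 for MDM4. In 6WP against AM cells the ranges were -0.032 to 0.046 for SPATA18, -0.71 to 0.37 for DDB2, -0.15 to 0.42 for SESN1, -0.019 to 0.70 for FDXR, -0.18 to 0.41 for PHLDA3, -0.044 to 0.091 for TP53INP1, -0.29 to 0.093 for BTG2, -0.53 to 0.11 for PLK2, -0.41 to 0.076 for AEN and -0.39 to 0.051 for TRIAP1. In AM against WT cells the ranges were -0.14 to 0.083 for PPM1D, -0.35 to 0.034 for BBC3, -0.055 to 0.16 for DDB2, -0.30 to 0.034 for MDM4, -0.25 to 0.026 for GADD45A, -0.026 to 0.11 for ATR, -0.21 to 0.042 for MDM2 and -0.57 to 0.029 for POLH. The remaining single gene results kept their direction. Where a library is left out, the lone replicate is assumed to vary like the other groups.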

Other observations

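Beside the p53 pathway, some luminal epithelium markers differed between groups by edgeR. Of the 10 listed, 1 rose and 5 fell in AM against WT cells (60%, against 17.7% of all genes). In 6WP against AM cells 3 rose and 1 fell (40%, against 21.3%). In 6WP against WT cells 0 were called, against 3.00% of all genes. Only some of the called markers are named here, picked after their values were seen. The protease TMPRSS2 (-1.71, adjusted p = 0.0256), FOLH1, which encodes PSMA (-0.66, adjusted p = 0.0360), and KRT8 (-0.78, adjusted p = 0.0132) fell in AM against WT cells, while KLK2, a kallikrein, rose by 0.81 (adjusted p = 0.00759). Against AM cells, TMPRSS2 (1.47, adjusted p = 0.0347) and FOLH1 (1.11, adjusted p = 0.00670) rose in 6WP cells and KLK2 fell by 0.50 (adjusted p = 0.0267). TMPRSS2 was at 91.0 and 95.7 CPM in WT, 24.5 and 32.4 in AM, and 42.0 and 116 in 6WP libraries, so its 6WP replicates lay far apart, with replicate 2 the higher.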
